A study of Sus scrofa with 8 samples.

Results

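PITX1, TBX4, TBX5, PRRX1, EN1, LMX1B and IRX1 are transcription factors of the limb and body wall, and their transcripts were followed by single-cell RNA sequencing (scRNA-seq) in pig somites and myotomes. The 7 genes were taken by symbol from the gene table of 21301 genes, and each was read in all 8 libraries and in cell types gated by marker genes that include none of the 7. Somite tissue was taken at embryonic day (E) 16, E18 and E21 and myotome tissue at E28 from Tibetan pigs (ZZ) and from the DurocxTibetan cross (DZ), all untreated. Every stage of every breed was 1 library, made from 5 pooled embryos of 1 sow, so nothing replicates a stage within a breed.

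PITX1 and TBX4 are known as factors of the hindlimb field, and TBX5 as their counterpart in the forelimb and as a factor of the developing heart. PRRX1 marks mesenchyme of the limb bud, body wall and craniofacial region. EN1 is known from the ventral limb ectoderm and also from the dermomyotome, the early dermis and a class of spinal interneurons, while LMX1B is known from dorsal limb mesenchyme, the dorsal neural tube and the kidney, and IRX1 belongs to the Iroquois family that patterns many epithelia and skeletal elements. The gated types in which each was counted are given throughout.

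In the Sscrofa11.1 assembly PITX1 spans chr2:137200424-137212500 on the minus strand, TBX4 chr12:36803355-36830321 on the minus strand, TBX5 chr14:37772205-37826015 on the plus strand and PRRX1 chr4:80427682-80502689 on the minus strand. EN1 spans chr15:24402605-24408377 and IRX1 chr16:77695704-77701089, both on the minus strand, and LMX1B chr1:267207273-267290862 on the plus strand. TBX4 lies 48340 bases from TBX2, TBX5 lies 175437 bases from TBX3 and IRX1 lies 604779 bases from IRX2, the nearest members of their own families.

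After quality control 74147 cells and 382966737 unique molecular identifiers (UMIs) were kept, with 5436 to 10956 cells per library and a median of 3405 to 6161 UMIs per cell. E16-ZZ stood apart, since 39.16% of its barcodes exceeded the mitochondrial limit against at most 9.15% elsewhere. The 2 E16 libraries were processed with another Cell Ranger version than the rest, and E28 was another tissue, so these differences and the stage cannot be told apart. Dermomyotome-like cells made up 1.498% to 6.06% and sclerotome-like cells 0.42% to 2.85% of a library, and myoblast-like cells made up 9.32% and 14.9% of the E28 myotome libraries. Any pair of libraries shared 23 to 49 barcodes, at most 0.453%. A gene level is given as CPM, the UMIs of the gene scaled to the same total of UMIs in every sum of cells, and no level is compared between genes.

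All 7 genes were sparse per cell. PRRX1 was counted in 11148 cells (15.0%), PITX1 in 5583 (7.53%), EN1 in 3889 (5.25%) and IRX1 in 3741 (5.05%), whereas LMX1B was counted in 754 (1.017%), TBX5 in 514 (0.693%) and TBX4 in 276 (0.372%). At least 1 of the 7 was present in 29.6% of cells. A single UMI accounted for 55.5% of the PITX1-positive cells, 94.2% of the TBX4-positive cells and 93.4% of the TBX5-positive cells. A cell without a UMI is therefore not shown to lack the transcript, and the tests were run on sums per library. In whole libraries, fewer cells of a type and less RNA per cell cannot be told apart. Counting intervals cover counting error only.

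The hindlimb factors were highest at E16. PITX1 was at 69.7 and 61.6 CPM in the ZZ and DZ libraries of E16, 14.7 and 11.2 in those of E18, 7.40 and 12.6 in those of E21, and 23.2 and 16.4 in those of E28. Both E16 libraries stood above the other 6, and both E28 libraries stood above both E21 libraries. TBX4, which acts downstream in hindlimb outgrowth, was at 2.53 and 2.66 CPM for E16, 0.243 and 0.322 for E18, 0.0681 and 0.109 for E21, and 0 in both E28 libraries, from 101, 153, 14, 17, 3, 5, 0 and 0 UMIs. TBX4 was higher at E16 than at E18 and higher at E18 than later without overlap, whereas the 3 UMIs of E21-ZZ lay at the floor, so that E28 is not shown to lie below E21. Against the E16 mean of 2.60 CPM, TBX4 at E28 was at least 36.9-fold lower, with the floor of 3 UMIs set per library and averaged over both E28 libraries (0.0704 CPM).

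For E16, TBX5 was at 1.81 and 2.16 CPM in ZZ and DZ, followed by 1.998 and 1.63 for E18, 0.658 and 2.24 for E21, and 0.372 and 0.0711 for E28. E21-DZ had the highest TBX5 level of all and both E28 libraries the lowest, from 16 and 3 UMIs. LMX1B was at 1.33 and 2.37 CPM for E16, 2.40 and 2.29 for E18, 2.29 and 5.73 for E21, and 1.21 and 0.521 for E28. E21-DZ was again the highest library for LMX1B.

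The other 3 genes were higher in the later libraries. PRRX1 was at 13.4 and 18.0 CPM for E16, 38.4 and 40.7 for E18, 43.9 and 70.8 for E21, and 95.2 and 73.5 for E28, so that every stage lay above the one before it. EN1 was at 1.78 and 3.69 CPM for E16, 1.29 and 0.927 for E18, 22.04 and 13.1 for E21, and 58.0 and 38.7 for E28. For EN1 the E28 libraries lay above the E21 libraries, and these lay above all 4 earlier ones. IRX1 was at 4.94 and 7.43 CPM for E16, 6.76 and 8.46 for E18, 21.9 and 21.5 for E21, and 29.3 and 9.60 for E28, with E28-DZ close to the E18 libraries.

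**Figure D1:**
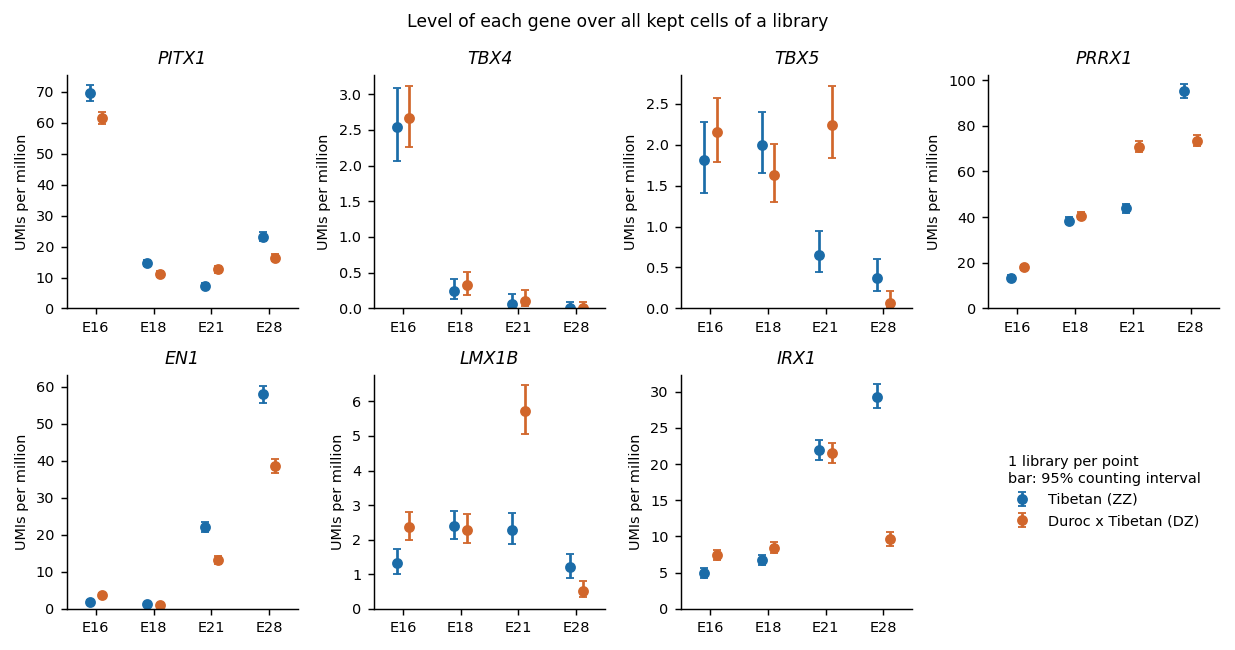
Level of each of the 7 genes in every library, in CPM (vertical axis), by stage (horizontal axis), with ZZ in blue, DZ in orange and bars for the 95% counting interval. PITX1 and TBX4 were highest in both E16 libraries, EN1 rose from at most 3.69 CPM in the early libraries to 13.1 CPM or more in the late ones, and PRRX1 reached 95.2 CPM in E28-ZZ.

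To compare stages with replication, the 4 early libraries (E16 and E18) were set against the 4 late ones (E21 and E28), with breed as a covariate. EN1 rose by 3.88 ± 0.65 (SE) on the log2 scale, from 1.92 ± 1.23 to 33.0 ± 19.8 CPM (SD, n = 4 each, adjusted p = 0.00494), IRX1 rose by 1.40 ± 0.35 (6.90 ± 1.48 to 20.6 ± 8.16 CPM, adjusted p = 0.0185) and PRRX1 by 1.23 ± 0.38 (27.6 ± 13.9 to 70.9 ± 21.0 CPM, adjusted p = 0.0377). TBX4 fell, with a log2 fold change of -5.15 ± 1.30 (1.44 ± 1.34 to 0.0443 ± 0.0537 CPM, adjusted p = 0.0183). Early and late libraries did not overlap for these 4 genes. They were 4 of the 7, where 34.3% of all 14337 genes tested were called by the edgeR quasi-likelihood test. TBX4 had at least 14 UMIs in every early library and at most 5 in any late one, so it relied on its early counts to pass the count filter. The 4 of 7 is therefore not a rate to set against the 34.3%. PITX1 (-1.62 ± 0.70, adjusted p = 0.105), TBX5 (-1.43 ± 0.82, adjusted p = 0.205) and LMX1B (0.03 ± 0.65, adjusted p = 0.979) did not pass, and their early and late libraries overlapped.

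The EN1 call held without any single library and without either end stage. The TBX4 call was lost without E16-ZZ (adjusted p = 0.0538), E16-DZ (0.0705), both E16 libraries (0.16) or both E28 libraries (0.1). The IRX1 call was lost without E16-ZZ (0.0602), E18-ZZ (0.0569), E21-DZ (0.0636) or both E16 libraries (0.121). The PRRX1 call was lost without E16-ZZ (0.0776), E16-DZ (0.0999), E21-DZ (0.0756), E28-ZZ (0.112), E28-DZ (0.0732), both E16 (0.183) or both E28 libraries (0.188), and with a mitochondrial limit of 5% (0.105). Conversely, PITX1 passed without E18-DZ (adjusted p = 0.0476) and TBX5 without E21-DZ (0.0206).

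Adjacent stages were compared in a fit of all 8 libraries, so the contrasts share libraries. From E16 to E18 PITX1 fell by 2.51 ± 0.35 on the log2 scale (adjusted p = 0.0208) and TBX4 by 3.37 ± 0.44 (adjusted p = 0.0235). These were 2 of the 7 genes, where 4.71% of all genes were called, while 4 of the 7 were below 0.05 before adjustment and 4 were called by DESeq2. PRRX1 differed by 1.17 (adjusted p = 0.0615) and EN1 by -1.54 (0.0827), and PRRX1 passed without any 1 of the E21 and E28 libraries (0.0291 to 0.0418) and EN1 without E16-ZZ (0.0178). Each of the 2 calls was lost when any 1 of the 4 libraries of these stages was left out (adjusted p = 0.0867 to 0.188 for PITX1 and 0.108 to 0.231 for TBX4) and with a mitochondrial limit of 5% (0.0883 and 0.135). From E18 to E21 EN1 rose by 3.87 ± 0.43 (adjusted p = 0.00351) and was the only one of the 7 called, where 21.2% of all genes were. In this interval 3 of the 7 were below 0.05 before adjustment and 2 were called by DESeq2, EN1 and IRX1. IRX1 differed by 1.42 ± 0.50 (adjusted p = 0.0875), and passed without E28-ZZ (0.00483) or E28-DZ (0.00487). PITX1 passed without E21-DZ (0.0183) and with a mitochondrial limit of 5% (0.0468), and TBX4 with that limit (0.0338) and with no doublets removed (0.0398).

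From E21 to E28 none of the 7 was called, where 8.53% of all genes were. EN1 differed by 1.47 (adjusted p = 0.056), PITX1 by 0.94 (adjusted p = 0.139), LMX1B by -2.13 (adjusted p = 0.0924) and TBX5 by -2.67 (adjusted p = 0.116), and TBX4, at 0 in both E28 libraries, had an adjusted p of 0.0597. In this interval 5 of the 7 were below 0.05 before adjustment and 4 were called by DESeq2 (EN1, PITX1, TBX5 and LMX1B). EN1 also passed without E16-ZZ (adjusted p = 0.00756) or E16-DZ (0.008) and with no filter on low counts (0.045), PITX1 without E21-DZ (0.0124), LMX1B without E28-ZZ (0.0466) and TBX4 with no doublets removed (0.0467). IRX1 differed by -0.19 (adjusted p = 0.846), but by -1.40 without E28-ZZ (adjusted p = 0.032) and by 0.64 without E28-DZ. Between the breeds, with stage as a block, 0.0% of genes and none of the 7 were called, and none of the 7 was below 0.05 before adjustment or called by DESeq2. Across all genes that breed test had 868 genes below 0.05 before adjustment and 56 called by DESeq2. The interaction of breed and period, added after seeing the data, also called 0.0% of genes and none of the 7, with 123 genes below 0.05 before adjustment.

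Gene lists around the 7 factors were read in the same late against early test. Among 20 tested genes of limb bud outgrowth and patterning, 4 rose and 3 fell where 34.3% of all genes were called, with a median log2 fold change of -0.15 against 0.03 over all genes. SHOX2, a gene of proximal limb skeleton formation, rose by 2.49 and ALX4, a paired-type factor of anterior limb and body wall mesenchyme, by 1.54, while HAND2, which acts in posterior limb mesenchyme and is also a gate marker here, fell by 4.24 and MSX1 by 1.76. Of 15 anterior and trunk HOX genes 6 rose and none fell (median 0.75), led by HOXA7 (2.82) and HOXC8 (2.72). Of 8 distal and posterior HOX genes 1 rose, HOXC9 (2.02), and none fell (median -0.92). Of 5 hindlimb field partners none was called, and of 9 body wall and dermis genes 1 rose, ALX4. IRX2, the family member next to IRX1, rose by 1.97 and LMX1A, the relative of LMX1B, fell by 1.07, among 6 tested genes of the Iroquois and Engrailed families. Of 4 neural tube genes that accompany EN1 and LMX1B, TLX3 rose (5.02) and PAX2 (-2.84) and LMX1A fell. Among these genes ALX4, HOXA7, HOXC8, IRX2 and TLX3 kept their call without any single library, but without both E16 libraries ALX4 (adjusted p = 0.0884), IRX2 (0.0619), HAND2 (0.159), MSX1 (0.119), PAX2 (0.133) and LMX1A (0.124) were lost, as was SHOX2 (0.15), without both E28 libraries HOXC9 (0.12) and HAND2 (0.0511), and with a mitochondrial limit of 5% PAX2 (0.168) and LMX1A (0.295). SHOX2 lost it without E16-DZ (adjusted p = 0.0587) or E21-ZZ (0.0616), HAND2 without E16-ZZ (0.0511), E16-DZ (0.0772) or E21-ZZ (0.0526), PAX2 without E16-ZZ (0.0514), E16-DZ (0.0742) or E18-ZZ (0.0618), MSX1 without either E16 library, either E18 library or E28-ZZ (0.0534 to 0.076), HOXC9 without any library but E16-DZ and E18-DZ (0.0563 to 0.0958) and LMX1A without any but E28-ZZ (0.0605 to 0.102).

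To locate the 7 genes, cells were gated by the type of which they had the most markers, and each type was compared with all other cells of the same library, with library as a block. Gating left 39.71% of cells ungated. The shares of several types did not overlap between early and late libraries, among them the following 3. Lateral mesoderm-like cells (GATA4, WT1, HAND1, HAND2, FOXF1 and GATA6 as markers) made up 18.99% of E16-ZZ, 15.7% of E16-DZ, 8.43% of E18-ZZ and 5.86% of E18-DZ, and at most 0.239% of any later library. Fibroblast-like cells made up 0.915% to 5.21% of the early libraries and 13.5% to 47.7% of the late ones, and erythroid-like cells 1.47% to 3.42% and 0.421% to 0.598%. The part of these shares in the stage differences of whole libraries was not tested.

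**Figure D2:**
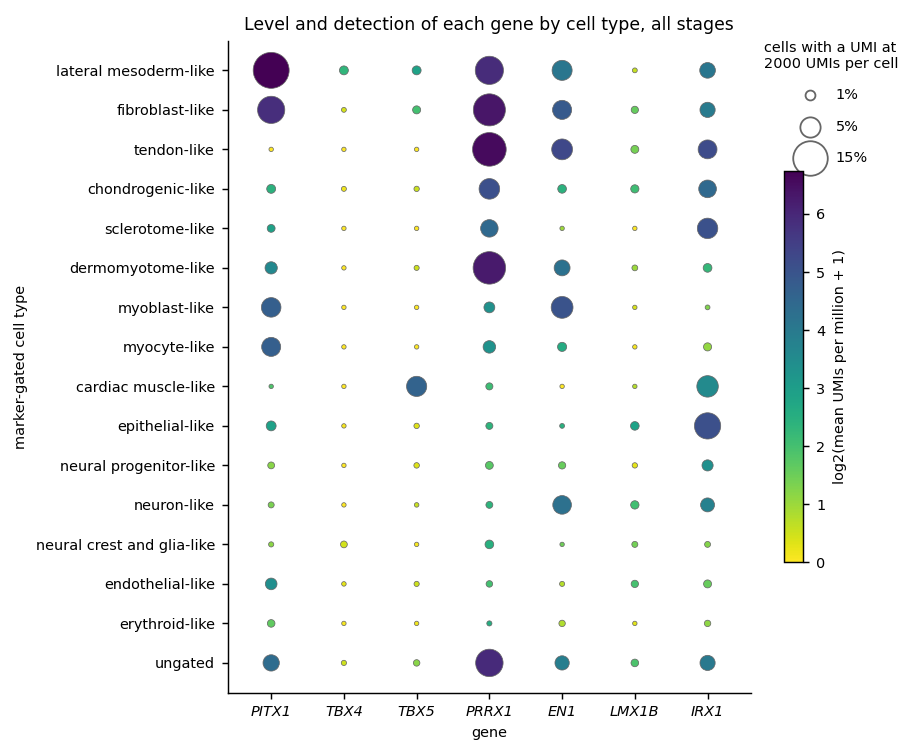
Mean level (colour, log2 of CPM + 1) and share of cells with a UMI after thinning every cell to 2000 UMIs (dot size, percent) of the 7 genes (one axis) in the gated types with at least 3 libraries (other axis). Each mean is over the libraries with at least 20 cells of the type, which differ between types (early and late for fibroblast-like, late only for tendon-like cells). PITX1 was at 105.8 CPM in lateral mesoderm-like cells and PRRX1 at 94.5 CPM in tendon-like and 81.7 in fibroblast-like cells.

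PITX1, TBX4 and TBX5 were all high in lateral mesoderm-like cells. In both E16 libraries, both E18 libraries and E21-DZ, the 5 with at least 20 such cells, PITX1 was at 156.6, 180.0, 50.2, 53.7 and 88.6 CPM there, the last from 12 UMIs. TBX4 was at 7.23, 10.7, 0.768, 1.45 and 0 CPM, and TBX5 at 4.26, 4.86, 7.37, 7.26 and 7.39 CPM in the same order. The E16 libraries were above the E18 libraries for PITX1 and TBX4 and below them for TBX5. In E21-DZ the TBX5 value was 1 UMI and the 0 of TBX4 allowed up to 22.2 CPM (3 UMIs). Against the other cells of these libraries PITX1 was higher by 2.45 ± 0.13 on the log2 scale (adjusted p = 5.22e-06), TBX4 by 3.22 ± 0.37 (adjusted p = 0.000323), TBX5 by 2.25 ± 0.23 (adjusted p = 0.000158) and PRRX1 by 1.41 ± 0.24 (adjusted p = 0.0035). LMX1B was lower, with a log2 fold change of -2.11 ± 0.44 (adjusted p = 0.00942, and 0.0548 with a mitochondrial limit of 5%). With LMX1B these made 5 of the 7, where 16.9% of all genes were called.

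Other limb genes were read in lateral mesoderm-like cells as well. Of 18 limb bud genes tested, leaving out the gate marker HAND2, 9 were higher, 4 lower and 5 not called (median 0.84 against -0.02 over all genes), where 16.9% of all genes were called. TBX2 was higher by 2.26, SHOX2 by 2.02 and FGF10, the mesenchymal growth factor of limb outgrowth, by 1.40 (adjusted p = 0.0694 with at least 3 markers required), while WNT7A, a signal of the dorsal limb ectoderm, was lower (-5.24) and so was FGF8, the growth factor of the apical ectodermal ridge (-3.72). Of 8 distal and posterior HOX genes 6 were higher and none lower (median 1.56), among them HOXD10 (2.14), HOXA11 (2.13) and HOXA13 (2.11), whereas 5 of 15 anterior and trunk HOX genes were lower and 1 higher (median -0.34). HOXD10 was lost without E16-DZ (adjusted p = 0.0734) and with at least 3 markers required (0.0962). ISL1, an early hindlimb field factor, was higher by 1.202 and TBX3, a T-box gene of limb and flank mesoderm, by 0.90. HAND2 and WT1, members of these lists and gate markers, are no result here.

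The PITX1 levels by type ran from 105.8 ± 59.6 CPM (SD, n = 5) in lateral mesoderm-like cells through 56.8 ± 47.0 (n = 8) in fibroblast-like, 25.6 ± 29.5 (n = 6) in myoblast-like, 25.6 ± 27.8 (n = 6) in myocyte-like and 11.01 ± 14.0 (n = 8) in dermomyotome-like cells, and every neighbour in that order overlapped the next. These means are over unlike sets of libraries. Within E18 PITX1 was higher in fibroblast-like cells (74.1 and 63.2 CPM) than in lateral mesoderm-like cells (50.2 and 53.7), and in E16-ZZ it was at 153.5 and 156.6 CPM. Cells with a PITX1 UMI made up 37.9% of lateral mesoderm-like cells on average, and 16.3% after thinning each cell to 2000 UMIs, against 6.90% (thinned 1.49%) of endothelial-like and 1.84% (thinned 0.492%) of erythroid-like cells, types that should lack the gene. Median depth per library was 5109 to 8986 UMIs in lateral mesoderm-like, 6287 to 10172 in endothelial-like and 3780 to 13195 in erythroid-like cells. Thinning left out 198 to 1370 shallower cells per library. In endothelial-like cells PITX1 was at 39.5 and 27.1 CPM in the E16 libraries and at most 4.77 in the other 6 libraries, so that the 2 libraries with the highest PITX1 level overall were also the highest there.

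PITX1 was in different cells early and late. Of early PITX1-positive cells 47.4% were lateral mesoderm-like, a type that held 11.5% of all early cells, and library by library these were 48.8%, 52.0%, 35.1% and 30.8% of the PITX1-positive cells. Of late PITX1-positive cells, pooled over the late libraries, 33.6% were myoblast-like, 33.1% fibroblast-like and 9.95% myocyte-like, where myoblast-like cells were 7.99% and fibroblast-like cells 29.7% of all late cells. Myoblast-like cells were 3.02% and 3.96% of the E21 libraries but 9.32% and 14.9% of the E28 libraries. The pooled shares therefore need not hold in a single library. In myoblast-like cells PITX1 was at 0 CPM in both E18 libraries, at 12.2 and 17.7 in the ZZ and DZ libraries of E21, and at 70.4 and 53.5 in those of E28. The 0 values came from 36 and 55 cells (ZZ and DZ), too few to show that E18 lay below E21. In myocyte-like cells it was at 11.5, 4.58, 6.40, 8.75, 65.7 and 56.6 CPM in the same order, so that both E28 libraries stood above the rest in each of these muscle types. Against other cells of the same libraries PITX1 differed by 1.39 in myoblast-like cells (adjusted p = 0.0563) and by 1.06 in myocyte-like cells (adjusted p = 0.0554), and neither passed.

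**Figure D3:**
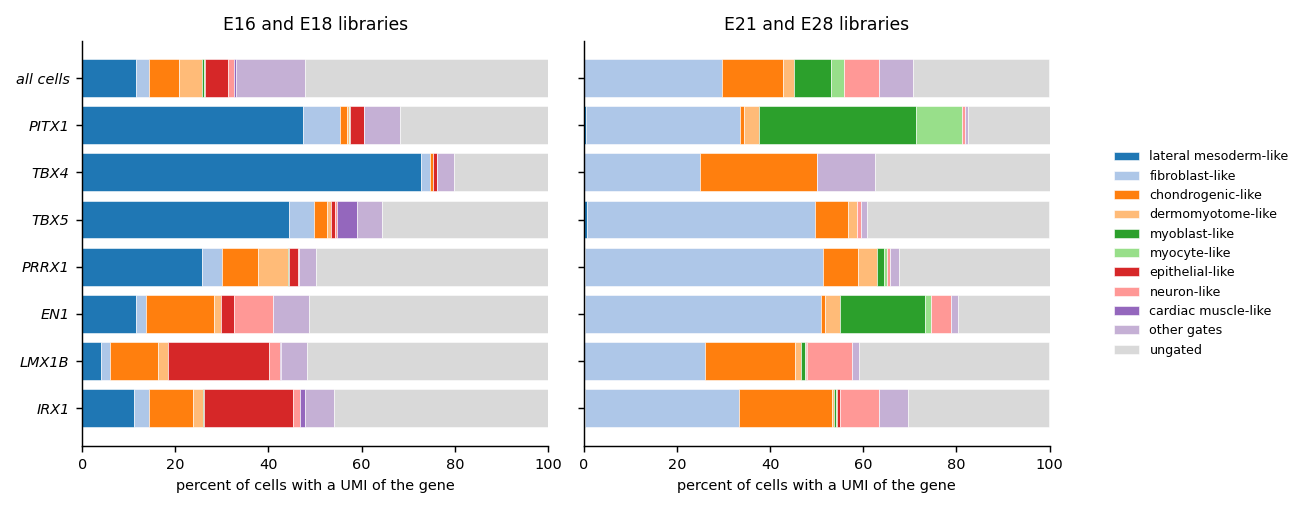
Gated type (colours) of all cells and of the cells with a UMI of each gene, as a percentage of those cells (bar length), in early (E16, E18) and late (E21, E28) libraries. Lateral mesoderm-like cells made up 47.4% of the early PITX1-positive and 72.8% of the early TBX4-positive cells, and fibroblast-like cells 51.2% of the late PRRX1-positive and 50.6% of the late EN1-positive cells.

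TBX5 was highest in cardiac muscle-like cells, at 24.1, 24.1 and 21.96 CPM in the 3 libraries with at least 20 such cells, from 4, 12 and 2 UMIs. That range lay above the next type, lateral mesoderm-like cells at 6.23 ± 1.54 CPM (SD, n = 5), and fibroblast-like cells followed at 3.05 ± 2.35 CPM (n = 8). In cardiac muscle-like cells TBX5 was higher than in the other cells by 3.77 ± 0.64 on the log2 scale (adjusted p = 1.19e-07), and PITX1 (-4.30 ± 0.66) and PRRX1 (-2.18 ± 0.73) were lower, 3 of the 7 where 13.6% of genes were called. In fibroblast-like cells TBX5 was higher by 1.62 ± 0.38 (adjusted p = 0.0139, and 0.113 with at least 3 markers required). TBX5 had no UMI in any library of myoblast-like, myocyte-like, sclerotome-like, tendon-like or macrophage-like cells.

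PRRX1 and EN1 were higher in fibroblast-like cells (LUM, DCN, OGN, COL6A3, COL14A1 and FBLN5 as markers). PRRX1 was at 14.5 and 21.2 CPM there for E16, 54.8 and 53.5 for E18, 113.1 and 123.8 for E21, and 140.3 and 132.2 for E28, with no overlap between the early and late libraries. EN1 was at 0 and 2.36 CPM for E16, 2.30 and 0.461 for E18, 48.2 and 28.2 for E21, and 82.3 and 61.2 for E28. The early and late EN1 values did not overlap there either. Against the other cells PRRX1 was higher in fibroblast-like cells by 1.06 ± 0.18 (adjusted p = 0.00169) and EN1 by 1.14 ± 0.23 (adjusted p = 0.00574), which with TBX5 made 3 genes called where 15.4% of all genes were. PITX1 differed by 1.35 in fibroblast-like cells and did not pass (adjusted p = 0.226). By mean level PRRX1 was at 94.5 ± 43.7 CPM (SD, n = 4) in tendon-like, 81.7 ± 51.3 (n = 8) in fibroblast-like and 76.9 ± 69.8 (n = 8) in dermomyotome-like cells, types whose ranges overlapped, and at 3.05 CPM in endothelial-like cells. Tendon-like cells had late libraries only. Over the 4 late libraries PRRX1 was at 131.0 ± 55.8 CPM in dermomyotome-like and 127.3 ± 11.7 in fibroblast-like cells, and EN1 at 54.96 ± 22.7 in fibroblast-like and 47.3 ± 23.0 in myoblast-like cells.

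In tendon-like cells PITX1 had no UMI in any of the 4 late libraries and was the only one of the 7 called, where 4.56% of genes were. EN1 in tendon-like cells was at 37.8 ± 33.5 CPM (n = 4), and 87.3 CPM in E28-ZZ against 13.1 to 25.9 in the other 3. In myoblast-like cells EN1 was higher by 0.72 ± 0.17 (adjusted p = 0.0123, and 0.0555 without E28-DZ), while IRX1 (-4.60 ± 0.40), LMX1B (-2.91 ± 0.58) and PRRX1 (-3.08 ± 0.24) were lower, 4 genes where 22.5% of all were called. In myocyte-like cells EN1 (-1.79), IRX1 (-4.08), LMX1B (-3.51) and PRRX1 (-2.46) were lower, where 41.3% of genes were called, and LMX1B was lost without E21-DZ (adjusted p = 0.0794). EN1 in myoblast-like cells was at 0 in both E18 libraries (36 and 55 cells), 40.7 and 17.7 CPM at E21 and 67.3 and 63.6 at E28.

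IRX1 and LMX1B were higher in epithelial-like cells (EPCAM, CDH1, ESRP1, GRHL2, CLDN7 and TP63 as markers). IRX1 was at 13.2, 19.8, 40.2, 40.8 and 52.3 CPM and LMX1B at 4.09, 8.06, 8.33, 10.6 and 0 CPM in the 2 libraries of E16, the 2 of E18 (ZZ before DZ) and E21-ZZ. The LMX1B value of E18-DZ rested on 7 UMIs and that of E21-ZZ on 28 cells. Against the other cells IRX1 was higher by 2.12 ± 0.21 (adjusted p = 9.26e-05) and LMX1B by 2.12 ± 0.34 (adjusted p = 0.00156). EN1 (-1.94), PITX1 (-2.47), PRRX1 (-2.31) and TBX5 (-3.07) were lower, so that all 6 tested were called, where 20.5% of all genes were. The EN1 call in epithelial-like cells was lost without E16-ZZ (adjusted p = 0.144), E16-DZ (0.306) or E18-ZZ (0.0614) and with at least 3 markers required (0.0639), and the TBX5 call without E16-ZZ (0.0536) or E16-DZ (0.0827) and with a mitochondrial limit of 5% (0.172).

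In chondrogenic-like cells (COL2A1, ACAN, COL9A1, MATN1, MATN4 and CNMD as markers) IRX1 was higher by 0.68 ± 0.18 (adjusted p = 0.038), and PITX1 (-3.02 ± 0.33) and PRRX1 (-0.52 ± 0.15) were lower, 3 genes where 11.9% of all were called. The IRX1 call was lost in 6 of the 8 fits without a library (adjusted p = 0.0583 to 0.0958), those keeping both E18 libraries, and the PRRX1 call in 6 (0.0572 to 0.124), those keeping E16-ZZ and E18-DZ, and with scaling by library size only (0.0532). In sclerotome-like cells EN1 (-4.50 ± 0.52), PITX1 (-3.04 ± 0.39) and PRRX1 (-1.34 ± 0.17) were lower and LMX1B had no UMI in any library (adjusted p = 0.052 with at least 3 markers required), where 11.6% of genes were called. IRX1 in sclerotome-like cells was at 0 to 3.02 CPM in the early libraries and at 92.1 and 109.0 CPM in E21-ZZ and E21-DZ, from 68 and 61 UMIs, and at 44.8 and 12.8 at E28, from 7 and 2. In dermomyotome-like cells IRX1 (-1.63 ± 0.29) and TBX5 (-2.11 ± 0.52) were lower, where 12.9% of genes were called and TBX5 was lost without E18-ZZ (adjusted p = 0.0607) or E18-DZ (0.0666), and EN1 (0.09 ± 0.40) and PRRX1 (0.32 ± 0.25) did not pass.

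PITX1 (-3.85 ± 0.45) and PRRX1 (-3.78 ± 0.23) were lower in neuron-like cells, where 40.8% of genes were called, and EN1 (1.04 ± 1.05, adjusted p = 0.464) and LMX1B (0.23 ± 0.43) did not pass there. In neural progenitor-like cells 5 of the 6 tested were lower and IRX1 did not pass (-0.43 ± 0.18), where 38.1% of genes were called. The EN1 call among them (-2.10) was lost without E18-ZZ (adjusted p = 0.0829), E18-DZ (0.0822), E21-ZZ (0.269) or E21-DZ (0.116) and with scaling by library size only (0.0529), and the TBX5 call (-3.41) with at least 3 markers required (0.43). In neural crest and glia-like cells EN1, IRX1, PITX1 and PRRX1 were lower by 3.17 to 4.48 on the log2 scale, where 21.6% of genes were called, and IRX1 was lost with a mitochondrial limit of 5% (adjusted p = 0.0512). The same 4 genes were lower in endothelial-like cells, where 50.1% of genes were called, and in erythroid-like cells, where 55.7% were. In endothelial-like cells EN1, IRX1 and PITX1 were lost with a mitochondrial limit of 5% (adjusted p = 0.254, 0.287 and 0.105).

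Stage differences were then read within types that had at least 3 early and 3 late libraries. In fibroblast-like cells EN1 rose by 5.58 ± 0.56 on the log2 scale (adjusted p = 0.00043), PRRX1 by 1.60 ± 0.32 (adjusted p = 0.00833) and IRX1 by 1.68 ± 0.47 (adjusted p = 0.0321), 3 of the 5 tested where 21.1% of all genes were called. EN1 was near 0 in the early libraries there and relied on its late counts to pass the count filter. The 3 calls are therefore not a rate to set against the 21.1%. IRX1 in fibroblast-like cells was at 2.08, 4.71, 5.52 and 11.5 CPM in the early libraries and at 25.1, 18.7, 34.7 and 13.2 in the late ones, which did not overlap. That IRX1 call was lost without E16-ZZ (adjusted p = 0.0903), E16-DZ (0.0728), E18-ZZ (0.105), E21-ZZ (0.0522) or E28-ZZ (0.0745), and with at least 3 markers required (0.0553). PITX1 in fibroblast-like cells was at 153.5, 73.0, 74.1 and 63.2 CPM early and 30.0, 40.0, 19.5 and 1.04 late in library order, which did not overlap, with a log2 fold change of -2.17 ± 0.80 (adjusted p = 0.0826).

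In dermomyotome-like cells EN1 was at 0, 0, 0.733 and 0.247 CPM in the early libraries, from 0, 0, 3 and 1 UMIs, and at 49.8, 33.8, 37.7 and 19.9 CPM in the late ones, from 79, 49, 22 and 14 UMIs. PRRX1 was at 3.82, 4.55, 38.1 and 44.9 CPM early and at 81.9, 83.5, 174.6 and 183.8 late. Both genes had every late library above every early one. EN1 rose by 6.45 ± 0.47 (adjusted p = 1.54e-05) and PRRX1 by 2.30 ± 0.56 (adjusted p = 0.015, and 0.0507 without E28-ZZ). Both of the 2 tested were called, where 20.5% of all genes were, but the other 5 did not pass the count filter. EN1 had at most 3 UMIs in any early library and at least 14 in every late one, so it relied on its late counts for that filter. The 2 calls are therefore not a rate to set against the 20.5%. PITX1 in dermomyotome-like cells was at 1.53, 5.46, 0.489 and 0.493 CPM early and at 18.9, 15.9, 41.1 and 4.27 late.

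EN1 in neuron-like cells did not follow that order. It was at 25.7, 17.6, 27.6 and 22.6 CPM in the early libraries, 29.3 and 20.2 in the ZZ and DZ libraries of E21, and 0 and 1.76 in those of E28, from 0 UMIs in 60 cells and 2 UMIs in 215 cells. The log2 fold change of late against early was -0.68 ± 0.62 (adjusted p = 0.445), and EN1, the only one of the 7 tested there, was not below 0.05 before adjustment, where 30.5% of genes were called. The difference between types was tested in an interaction added after seeing the data. The EN1 change was larger in dermomyotome-like than in neuron-like cells by 7.23 ± 0.82 (adjusted p = 2.11e-05, where 16.9% of genes were called) and larger in fibroblast-like than in neuron-like cells by 5.97 ± 1.13 (adjusted p = 0.00237, where 17.2% were). The PITX1 change was lower in fibroblast-like than in dermomyotome-like cells by a log2 difference of -5.42 ± 0.66 (adjusted p = 5.11e-05, where 8.51% were called). Within dermomyotome-like cells alone PITX1 did not pass the count filter, and within fibroblast-like cells it was not called (adjusted p = 0.0826).

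In chondrogenic-like cells IRX1 was at 8.35, 17.2, 4.66 and 9.56 CPM early and at 27.5, 28.3, 54.2 and 19.9 late, which did not overlap, and it rose by 1.72 ± 0.45 (adjusted p = 0.0172), 1 of 3 genes tested where 31.4% of all genes were called. The call was lost without E16-ZZ (adjusted p = 0.0557) or E18-ZZ (0.0538). PRRX1 (0.56) and LMX1B (0.16) did not pass there. EN1 in chondrogenic-like cells was at 10.1 and 15.5 CPM at E16 and between 0.407 and 2.97 in every later library. Among ungated cells IRX1 rose by 1.55 (adjusted p = 0.00666), PRRX1 by 1.40 (adjusted p = 0.0312) and EN1 by 2.91 (adjusted p = 0.0387), 3 of 6 tested where 33.5% of genes were called. With a mitochondrial limit of 5% EN1 (0.0552) and PRRX1 (0.0784) were lost. Among ungated cells the EN1 call was lost without any library but E16-DZ and E21-DZ (adjusted p = 0.0507 to 0.101) and the PRRX1 call without E16-ZZ (0.0663), E16-DZ (0.0694), E21-DZ (0.0628), E28-ZZ (0.0915) or E28-DZ (0.0526).

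**Figure D4:**
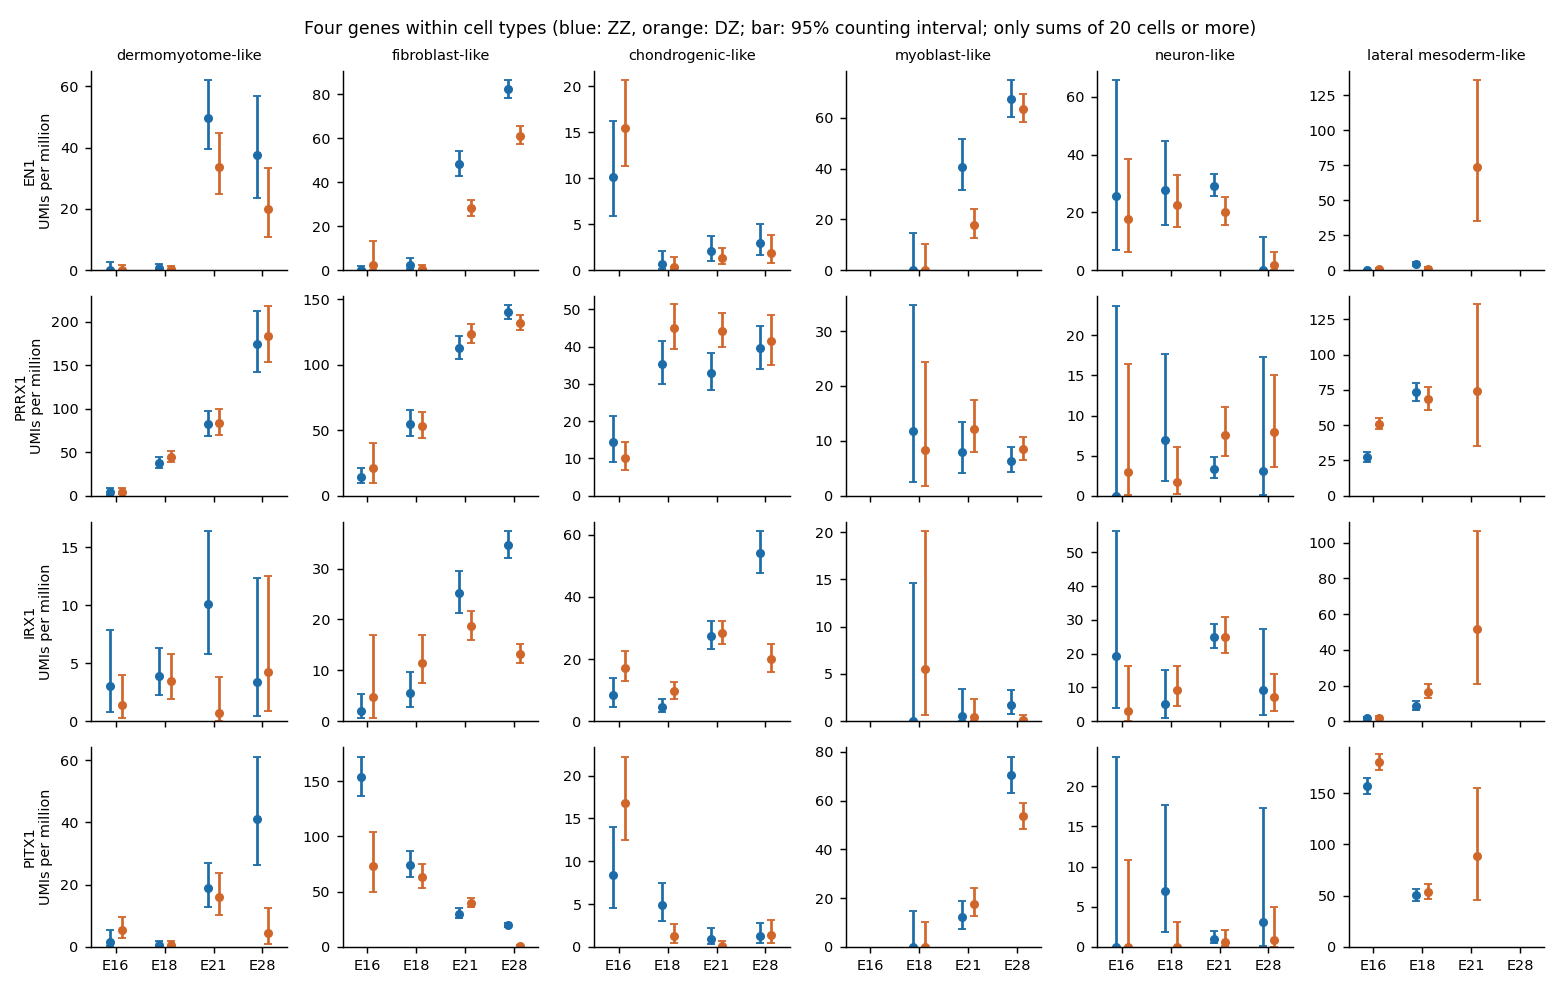
Levels of EN1, PRRX1, IRX1 and PITX1 (vertical axis, CPM) by stage (horizontal axis) and breed (colour) within 6 gated types, with a point for each library that had at least 20 cells of the type. EN1 in dermomyotome-like cells went from at most 0.733 CPM early to at least 19.9 late, while in neuron-like cells it stayed between 17.6 and 29.3 CPM up to E21 and was at most 1.76 at E28.

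The 7 genes met in the same cells to different degrees. Most of the 276 TBX4-positive cells came from the E16 libraries, where 73.4% (ZZ) and 72.0% (DZ) of them had a PITX1 UMI against 24.5% and 19.1% of all cells. Over the early libraries the share was 66.8% against 11.5%, and 26.7% against 5.43% after thinning, with a median of 9340 UMIs in TBX4-positive cells against 5287. PITX1 and TBX5 were counted together in 106 cells and TBX4 and TBX5 in 11. Among late cells PRRX1 was present in 51.2% of LMX1B-positive, 42.0% of TBX5-positive and 31.7% of EN1-positive cells against 18.4% of all (thinned 31.8%, 26.2% and 20.4% against 11.6%). Among early cells it was present in 25.1%, 25.1% and 18.4% against 10.99% (thinned 11.7%, 9.26% and 9.45% against 4.86%), where EN1-positive cells had more in 2 of 4 libraries. Among late cells EN1 was present in 20.3% of PITX1-positive cells against 8.96% of all (thinned 10.0% against 5.54%), a direction shared by 4 of 4 libraries, and among early cells in 0.439% against 0.776%, although higher in 2 of 4 libraries. PRRX1 was present in 10.4% of late IRX1-positive cells against 18.4% of all late cells (thinned 5.33% against 11.6%), lower in 4 of 4 libraries, while among early cells it was present in 14.8% against 10.99% (thinned 4.80% against 4.86%), higher in 3 of 4.

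To see what accompanied each factor within the mesenchyme, PRRX1-positive cells with a UMI of a second factor were compared with PRRX1-positive cells without it, with library as a block. These comparisons share cells, and the 2 genes that select the cells are not results. Of the other 5 genes, 2 could be tested with PITX1 as the second factor, 4 with TBX5, 3 with EN1, 4 with LMX1B and 3 with IRX1, and none of these was called. Cell numbers are given for the libraries tested, which had at least 20 cells of both kinds, and median depths are over all 8 libraries. Shares of gated types given over all 8 libraries need not hold in the libraries tested. Cells with the second factor had more UMIs for PITX1 (median 7314 against 4520), TBX5 (6679 against 4650), LMX1B (5732 against 4648) and IRX1 (6238 against 4615), and fewer for EN1 (4292 against 4723). Only 72 cells had both PRRX1 and TBX4, in too few libraries for a test, and 79.2% of them were lateral mesoderm-like.

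PRRX1-positive cells with PITX1 (1041 cells, 8 libraries) had more HAND1 and HAND2, which are gate markers of lateral mesoderm-like cells here. They had less COL2A1, a gate marker of chondrogenic-like cells. HAND1 was at 428.1, 422.6, 475.0, 887.3, 19.4, 17.6, 0 and 0 CPM in the cells with PITX1 and at 147.6, 164.9, 76.3, 91.9, 3.17, 2.02, 0 and 0 in those without, in order from E16-ZZ to E28-DZ. HAND1 (2.36 ± 0.28, adjusted p = 0.00281) and HAND2 (1.61 ± 0.19, adjusted p = 0.00295) were higher in 6 of 8 libraries and at 0 in both E28 libraries, and COL2A1, the main collagen of cartilage, was lower (-1.87 ± 0.19), at a mean of 46.8 against 172.6 CPM. Of 12 limb bud genes tested HAND2 was higher and PRRX2 lower (-0.74, adjusted p = 0.0298), and PRRX2 was called in 5 of 11 alternatives. ZIC2 (-2.57) and HOXC5 (-1.81) were lower and TMEM88 (1.28) and SMTNL2 (1.17) higher. HOXA3 (-1.06), HOXB5 (-1.09) and HOXD9 (1.58) were also called, but each was lost without E21-ZZ (adjusted p = 0.0736, 0.141 and 0.0872), and HOXB5 and HOXD9 also without any other 1 of the E16 to E21 libraries, HOXB5 in mesodermal and ungated cells only (0.054) and HOXD9 with no doublets removed (0.0573). The called share of all genes was 0.75%, with 0 of the 2 tested members below 0.05 before adjustment. Within libraries, 67.6%, 73.8%, 44.4% and 40.0% of the cells with PITX1 were lateral mesoderm-like from E16-ZZ to E18-DZ against 29.8%, 31.1%, 16.2% and 10.2% of those without, and at most 1.52% of either in the late libraries. Over all 8 libraries chondrogenic-like cells made up 0.865% of the cells with PITX1 and 8.31% of those without. The part of these types in the differences was not tested.

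PRRX1-positive cells with TBX5 (124 cells, 3 libraries) had more LHX2, a LIM-homeodomain factor of the limb bud mesenchyme. LHX2 was at 65.2, 86.9 and 45.2 CPM in E18-ZZ, E18-DZ and E21-DZ against 15.3, 18.1 and 11.7 in the cells without TBX5, higher by 2.07 ± 0.28 (adjusted p = 3.16e-11). Of 16 limb bud genes tested 5 were higher and none lower. LHX9 (2.14) was lost without E21-DZ (adjusted p = 0.239), MSX1 (1.15) without E18-ZZ (0.0572), TBX2 (1.51) without E18-ZZ (0.998) and FGF10 (1.45) without E18-ZZ (0.998) or E18-DZ (0.162) and with no doublets removed (0.0693). CST3 (0.84) and the keratins KRT8 (0.71) and KRT18 (0.76) were higher. Over all 8 libraries 28.1% of the cells with TBX5 were lateral mesoderm-like and 1.96% chondrogenic-like, against 8.40% and 7.69% of those without. The part of these types in the differences was not tested. HOXA10 (1.66) came from E21-DZ, at 233.3 against 59.1 CPM, and had no UMI in the TBX5-positive cells of both E18 libraries. HOXD8 (1.24) and HOXB9 (-0.89) were lost without either E18 library (adjusted p = 0.108 to 0.8), and HOXB9 in mesodermal and ungated cells only (0.0741). NPY (-5.88) and MOXD1 (-2.51) were lower. The called share of all genes was 1.04%, with 1 of the 4 tested members below 0.05 before adjustment.

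PRRX1-positive cells with EN1 (1186 cells, 5 libraries) had more ALX4 and less of the sclerotome and cartilage genes PAX1, COL9A1 and MATN4. In E18-ZZ and then the ZZ and DZ libraries of E21 and of E28, ALX4 was at 10.97, 63.2, 42.0, 44.7 and 33.7 CPM with EN1 and at 8.92, 18.9, 16.9, 19.2 and 11.5 without, higher in 5 of 5 (1.40 ± 0.15, adjusted p = 0.000101). PAX1 was at 0, 2.38, 0.955, 0.739 and 3.06 CPM with EN1 and at 33.7, 61.3, 23.3, 19.1 and 22.7 without, lower in 5 of 5 (-4.26 ± 0.30, adjusted p = 7.47e-07). COL9A1 (-2.60), MATN4 (-2.93), ALDH1A1 (-2.53), the chemokine CXCL12 (-1.83) and SHOX2 (-3.02) were lower too, and NELL2 (1.36), IGF1 (1.14), PLS3 (0.88) and STMN2 (1.016), a gate marker of neuron-like cells, higher. Over the alternatives PAX1 ran from -4.712 to -2.562 and MATN4 from -3.205 to -1.571, and both stayed called. Of 14 limb bud genes tested ALX4 was higher and SHOX2, WNT5A and FGF8 lower, where WNT5A (-0.95) was lost without E21-DZ (adjusted p = 0.0523) or E28-ZZ (0.0706) and FGF8 (-1.07) without E18-ZZ (0.0522) or E21-DZ (0.0658) and with no doublets removed (0.071). PAX3 (1.26) was lost without E21-ZZ (adjusted p = 0.0669) and WT1 (-2.19) without E28-ZZ (0.0693). HOXB9 was lower (-1.33), and HOXC9 (0.45) was lost without any 1 of the 4 late libraries (0.0706 to 0.221) and with scaling by library size only (0.0595). The called share of all genes was 2.04%, with 1 of the 3 tested members below 0.05 before adjustment. Fibroblast-like cells made up 45.2%, 53.5%, 71.0% and 79.1% of the cells with EN1 in the late libraries and 29.96%, 35.5%, 62.9% and 57.1% of those without, and 8.57% and 5.17% in E18-ZZ. Over all 8 libraries chondrogenic-like cells made up 1.25% of the cells with EN1 and 8.38% of those without. For sclerotome-like cells, of which PAX1 is a gate marker, these shares were 0% and 0.834%. The part of these types in the differences was not tested.

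PRRX1-positive cells with LMX1B (270 cells, 5 libraries) had more LHX2 and SHOX2 and less PAX3. LHX2 was at 91.4, 87.7, 0, 52.3 and 0 CPM in the ZZ and DZ libraries of E18, those of E21, and E28-ZZ, against 14.4, 16.6, 0.896, 9.32 and 0.767 without LMX1B (2.42 ± 0.22, adjusted p = 3.14e-10), with the excess seen in both E18 libraries and E21-DZ. Each 0 came from 31 cells (137070 UMIs in E21-ZZ and 141193 in E28-ZZ), too few to show an excess over such low levels. SHOX2 was at 0, 2.83, 87.6, 265.5 and 14.2 CPM against 0.2, 0.693, 15.6, 51.4 and 6.81 (2.24 ± 0.22, adjusted p = 1.11e-09), with the excess mainly in the E21 libraries. The E28-ZZ value with LMX1B rested on the same 31 cells. Of 15 limb bud genes 6 were higher and none lower, with MSX1 (1.35) and BMP4 (0.91) called in every alternative, PRRX2 (0.76) lost without E28-ZZ (adjusted p = 0.105) and FGF10 (1.16) lost without E18-ZZ (0.422), E18-DZ (0.184) or E21-DZ (0.229) and in mesodermal and ungated cells only (0.0687). NPY (2.18), ZIC4 (1.16), CRABP2 (0.46) and HOXD1 (1.40) were higher, and PAX3 (-3.07), CXCL12 (-1.89) and ACTC1 (-2.35) lower. Over all 8 libraries 0.348% of the cells with LMX1B were myoblast-like and 0% myocyte-like, against 1.09% and 0.488% of those without. Dermomyotome-like cells, of which PAX3 is a gate marker, made up 1.39% and 4.85%. Chondrogenic-like cells made up 15.7% and 7.40%, fibroblast-like cells 22.3% and 36.0%, and lateral mesoderm-like cells 3.48% and 8.81%. The part of these types in the differences was not tested. HOXC9 (-1.16) was lost without E21-DZ (adjusted p = 0.804). The called share of all genes was 1.29%, with 3 of the 4 tested members below 0.05 before adjustment.

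PRRX1-positive cells with IRX1 (419 cells, 6 libraries) had more MATN2, a matrix protein, at 49.8, 31.8, 25.2, 16.1, 53.6 and 61.3 CPM from E18-ZZ to E28-DZ against 23.5, 16.2, 5.58, 4.26, 27.2 and 15.0 without IRX1. MATN2 was higher in 6 of 6 libraries (1.21 ± 0.20, adjusted p = 0.00577). The muscle genes MYLPF (-2.72 ± 0.20) and ACTC1 (-2.25 ± 0.21) and ZIC4 (-2.36 ± 0.29) were lower. ACTC1 ran from -2.459 to -1.312 over the alternatives and stayed called. Over all 8 libraries 0% of the cells with IRX1 were myoblast-like or myocyte-like, against 1.11% and 0.495% of those without. Fibroblast-like cells, of which COL14A1 is a gate marker, made up 45.35% of the cells with IRX1 and 35.27% of those without. For chondrogenic-like cells, of which MATN4 is a gate marker, these shares were 7.48% and 7.62%. The part of these types in the differences was not tested. PKP2 (0.92), PLK1 (0.58), MATN4 (1.27), COL14A1 (1.41) and ALX1 (1.10) were called, but none kept its call in every alternative. PKP2 and ALX1 were lost without E18-ZZ (adjusted p = 0.121 and 0.327), E18-DZ (0.287 and 0.413) or E21-DZ (0.0613 and 0.0583), and ALX1 also with no doublets removed (0.122). PLK1 was lost without E18-DZ (0.104) or E21-DZ (0.08) and with no doublets removed (0.14), MATN4 without E18-ZZ (0.0536), E28-ZZ (0.161) or E28-DZ (0.183), and COL14A1 without E28-DZ (0.257). None of 15 limb bud genes was called, and the called share of all genes was 0.446%, with 0 of the 3 tested members below 0.05 before adjustment.

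Haemoglobin transcripts moved with these comparisons. The 3 haemoglobin genes summed to 135.5 to 854.6 CPM with TBX5 against 1941 to 4918 without, to 113.3 to 911.6 with LMX1B against 1393 to 5168, to 60.6 to 948.2 with PITX1 against 165.7 to 5231, to 156.1 to 1471 with EN1 against 434.6 to 5343, and to 46.0 to 5524 with IRX1 against 413.9 to 4972. They were lower with the second factor in every library except 1 of the 6 for IRX1. The 5 erythroid-like markers summed to at most 36.5 CPM with a second factor and 44.1 without. In mesodermal and ungated cells only, HBE1 and HBZ were no longer called for LMX1B (adjusted p = 0.12 and 0.283), nor HBB for IRX1 (0.0718). For TBX5 both HBE1 and HBZ stayed called in all 6 alternatives (adjusted p at most 0.0367 and 0.0132). Their part in the other differences was not tested.

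**Figure D5:**
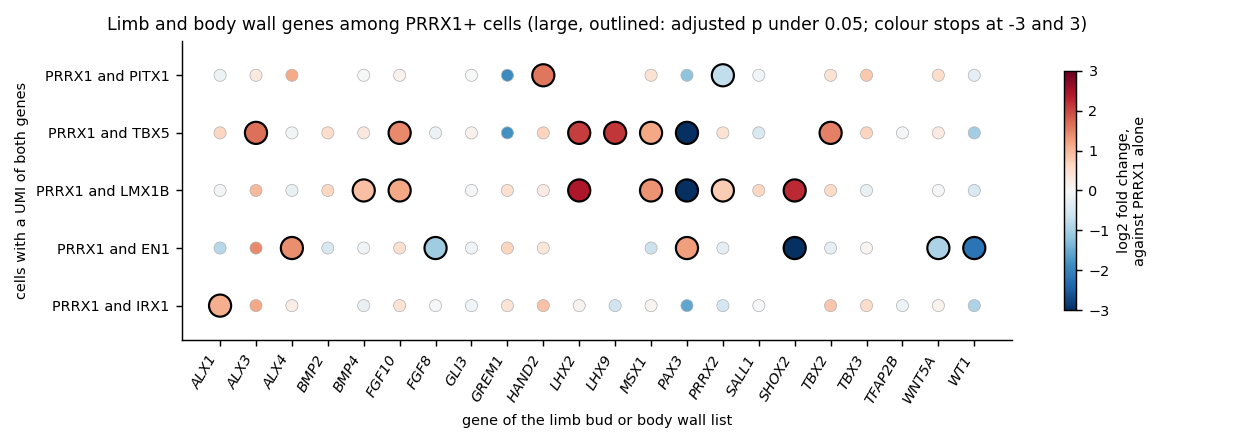
Log2 fold changes (colour, cut off at -3 and 3) of limb bud and body wall genes (one axis) in PRRX1-positive cells with PITX1, TBX5, LMX1B, EN1 or IRX1 against those without it (other axis). Large outlined points mark an adjusted p under 0.05: HAND2 was higher with PITX1 (1.61), SHOX2 was higher with LMX1B (2.24) and lower with EN1 (-3.02), and LHX2 was higher with TBX5 (2.07) and LMX1B (2.42).

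Cells with TBX5 and neither PITX1 nor TBX4 (390 cells) were set against cells with PITX1 or TBX4 and no TBX5 (4504 cells) in the 6 libraries of E16 to E21. SHOX2 was at 24.8, 10.2, 11.6, 45.2, 35.3 and 288.1 CPM in the TBX5 cells and at 2.21, 1.67, 0, 0.75, 8.03 and 8.42 in the PITX1 or TBX4 cells, higher in 6 of 6 libraries by 4.07 ± 0.45 on the log2 scale (adjusted p = 0.00145). Over all 8 libraries 3.95% of the TBX5 cells were cardiac muscle-like, 4.94% chondrogenic-like and 0% myoblast-like, against 0.0359%, 1.36% and 10.3% of the PITX1 or TBX4 cells. These shares include the E28 libraries, which were not tested and held 585 and 481 of the PITX1 or TBX4 cells. Myoblast-like cells were 9.32% and 14.9% of all cells there, against at most 3.96% in any tested library. The shares therefore need not hold in the 6 libraries tested, and the part of these types in the differences was not tested. NEBL (2.81 ± 0.34), a gene of cardiac muscle, was also higher, and SLIT2 (-2.61 ± 0.28), KRT8 (-1.50 ± 0.16), MYOF (-1.90 ± 0.21) and MEST (-1.42 ± 0.18) were lower. The called share of all genes was 0.602%, and PRRX1, the 1 of the 4 other genes that could be tested, was not called, though below 0.05 before adjustment. GPC3 (0.99), JAG1 (1.47) and COL2A1 (1.46) were called as higher in TBX5 cells, but were lost without E18-ZZ (adjusted p = 0.05, 0.141 and 0.127), and COL2A1 also without E16-ZZ (0.0612).

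The HOX genes HOXC8 (-1.76 ± 0.29), HOXC9 (-2.28 ± 0.40) and HOXB9 (-1.198 ± 0.21) were lower in the TBX5 cells. HOXC8 was at 12.4, 24.6, 38.2, 6.69, 70.6 and 47.6 CPM in the TBX5 cells and at 27.3, 50.6, 128.5, 101.6, 122.3 and 125.5 in the PITX1 or TBX4 cells, lower in 6 of 6 libraries. Each of the 3 calls was lost without E16-ZZ (adjusted p = 0.0612, 0.0668 and 0.0952) or E18-ZZ (0.204, 0.11 and 0.315), and HOXB9 also without E16-DZ (0.0511). PRRX2 differed by 0.69 ± 0.29 (adjusted p = 0.359). The haemoglobin genes summed to 158.8 to 8170 CPM in TBX5 cells and 155.7 to 4358 in the others, lower in 4 of 6 libraries, and none of the 3 was called.

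The genes whose levels were most like those of the 7 were found over 109 sums of a type in a library. Pearson's r of log2(CPM + 1) was ranked among 9902 genes with a mean of at least 5 CPM over these sums. It is a description in which sums of a library share its depth. Among the genes most like PITX1 were MMP23B (r = 0.65) and SMTNL2 (0.57), and PRRX1 was most like the collagen-processing gene PCOLCE (0.82), COL3A1 (0.81), CLMP (0.81) and GLT8D2 (0.79). TBX5 was most like HAND2 (0.75), NPPB (0.70) and GATA6 (0.70), and TBX4 was most like HAND2 (0.61), with HAND2 and GATA6 among the gate markers. EN1 was most like FAP (0.62), a gene of activated fibroblasts, STMN2 (0.62), a gate marker of neuron-like cells, and CHODL (0.62). Among the ranked genes IRX1 was most like SSBP3 (0.63), while IRX2 lay below that mean and was not ranked. LMX1B had no value above 0.453 (C1QL4). Between family members the r was 0.81 for IRX1 and IRX2 and 0.67 for PRRX1 and PRRX2, and PITX1 and TBX4 reached 0.49.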

How the data were processed

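The deposited files held raw UMI counts per gene and barcode, which the authors made with Cell Ranger 3.0.2 or 3.1.0 from 10x Genomics 3' v3 libraries, aligned to Sscrofa11 with Ensembl annotation, and filtered to cell barcodes. Of 90688 barcodes, 82394 had at least 200 genes, at most 30000 UMIs and at most 10% mitochondrial UMIs over 13 genes. Scrublet was run in scanpy 1.11.5, and because its automatic threshold marked only 842 barcodes, the highest scores were removed at 0.8% per 1000 deposited barcodes (8247 barcodes). A cell was gated to the type of which it had UMIs of the most markers, if these were at least 2 and more than of any other of 16 types. The markers MYH6, MYL7, NPPA, SOX2, SOX1, S100B and HEMGN, and the list genes SALL4, TWIST1, HOXA9, HOXA4, HOXA6, TBX15, TWIST2, PAX8 and PRRXL1, were not analysed here.

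UMI counts were summed per library, or per library and type with at least 20 cells, and tested with edgeR 4.0.16 (quasi-likelihood test, TMM, filterByExpr, limma 3.58.1, R 4.3.3), with Benjamini-Hochberg adjustment over all genes tested and a threshold of 0.05. Libraries were the replicates, and a type or selection needed at least 3 of them. In the late against early tests stages were joined in 2 periods, so p-values measure the spread between these libraries. Tests with 3 or 4 libraries took little account of their small number, so their p-values and SEs can understate the spread between libraries. With TBX5 among PRRX1-positive cells (3 libraries) HBE1 was at -2.67 ± 0.091 (SE), but ran from -4.715 to -1.626 without 1 library. Shares of cells were also computed with each cell thinned to 2000 UMIs. On simulated data for the late against early test with 200 changed genes, 76% of 2-fold and 100% of 4-fold changes were recovered. The simulation gave all genes the same spread and no stage differences within a period. Its rates therefore do not hold for genes that vary more, such as PITX1, TBX4 and TBX5 (SE 0.697, 1.299 and 0.823). Alternatives were DESeq2 1.42.0, no filter on low counts, library size scaling, no doublets removed, a mitochondrial limit of 5%, at least 1000 UMIs, at least 3 markers, mesodermal and ungated cells only, and leaving out libraries. Interactions of breed or type with period were added after seeing the data.

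The genes and lists were chosen with earlier results of these data known. Named were the 7 genes, 2 to 4 genes of each list (the largest changes among called genes, the lowest p among the rest), the 5 genes most like each of the 7, and in comparisons of selected cells the 5 called genes with the lowest adjusted p in each direction and all HOX genes called. Genes without a symbol, and most list genes beyond the leading ones, are left out, while other called list genes named beside them were chosen after their values were seen. Certain genes that met these rules are not reported here.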

Additional observations from a re-analysis of the deposited data

Results flagged for a closer look

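Among the 4 early libraries LMX1B in E16-ZZ, at 1.33 CPM, lay far below the other 3 (2.29 to 2.40 CPM), past Dixon's 95% limit for 4 values, which chance exceeds in about 1 of 20 groups, and it was the 1 of 14 groups of a gene and a period screened that did so. The late against early change differed between types for EN1, by 7.23 between dermomyotome-like and neuron-like cells and by 5.97 between fibroblast-like and neuron-like cells, and for PITX1, by -5.42 between fibroblast-like and dermomyotome-like cells, on the log2 scale and by tests of the difference itself. These tests of the difference were not recomputed under the alternatives. EN1 in neuron-like cells of E28 rested on 0 and 2 UMIs, and PITX1 did not pass the count filter within dermomyotome-like cells alone.

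The 4062 barcodes of E16-ZZ removed for their mitochondrial share held transcripts of all 7 genes. PITX1 was at 53.4 CPM in the removed barcodes against 69.7 in the kept cells, TBX4 at 3.07 against 2.53, TBX5 at 2.02 against 1.81 and PRRX1 at 11.4 against 13.4. EN1 was at 2.02 against 1.78, LMX1B at 1.95 against 1.33 and IRX1 at 8.90 against 4.94 CPM.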

How the results depend on the processing

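Each test but the interactions was recomputed under those alternatives of the methods that applied to it, one at a time. DESeq2 and no filter on low counts were applied to whole libraries only. Of the values for single genes under alternatives other than leaving out 1 library, 1047 kept their direction and their side of the threshold, 64 lost their call, 12 gained one and 8 changed sign, and without 1 library the numbers were 1475, 190, 15 and 24. EN1 kept its late against early call in all 16 alternatives. The labels give no replicate numbers, so no replicate block was fitted, while stage was the block between breeds and library the block between cells. Depth limits LMX1B, TBX4 and TBX5, which had 886, 293 and 548 UMIs in all, and the cause of the changes below was not tested.

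The late against early test called 1341 genes without both E16 libraries, 2549 without both E28 libraries and 2979 to 4599 without 1 library, the lowest without E16-DZ. In it PITX1 was at 0.142 without both E16 libraries, and LMX1B at -0.005 with no filter on low counts, -0.016 with no doublets removed, -0.091 without both E16 libraries and -1.015 to 0.343 without 1 library, the lowest without E21-DZ. Without 1 library PITX1 ran from -2.02 to -0.97 and TBX5 from -2.9 to -1.108 in that test. E18 against E16 called 2139 genes with DESeq2, 52 with a mitochondrial limit of 5% and 17 to 989 without 1 library, the lowest without E18-DZ, followed by E18-ZZ (64), E16-DZ (88) and E16-ZZ (108). With that mitochondrial limit TBX5 was at 0.077, LMX1B at -0.612 and IRX1 at -0.115, and without 1 library TBX5 ran from -0.619 to 0.013, LMX1B from -0.122 to 0.585 and IRX1 from -0.305 to 0.676. E21 against E18 called 373 to 3469 genes without 1 library, the lowest without E18-ZZ, and E28 against E21 called 2300 with DESeq2 and 327 to 985 without 1 library, the lowest without E21-ZZ. In the first of these PITX1 ran from -1.161 to 0.161, TBX5 from -1.841 to 0.52, PRRX1 from -0.022 to 0.83 and LMX1B from -0.263 to 1.334, and in the second IRX1 ran from -1.398 to 0.637. Without 1 library that second contrast also ran from 0.339 to 1.668 for PITX1 and from 0.109 to 1.018 for PRRX1. It ran from -3.268 to -1.226 for LMX1B and from -4.55 to -1.32 for TBX5. DZ against ZZ called 1 gene with no filter on low counts, 1 with no doublets removed and 56 with DESeq2, with which TBX5 was at -0.021, and without 1 library PITX1 ran from -0.427 to 0.066, TBX5 from -0.472 to 0.547, PRRX1 from -0.034 to 0.427, LMX1B from -0.151 to 0.724 and IRX1 from -0.433 to 0.316.

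Of the 7 genes, a mitochondrial limit of 5% left 1 called in dermomyotome-like, 1 in endothelial-like and 3 in lateral mesoderm-like cells. Without 1 library, 1 to 3 were called in dermomyotome-like and in chondrogenic-like cells, and in late against early within types 1 to 3 in dermomyotome-like and in ungated cells, 0 to 2 in chondrogenic-like and 0 to 1 in neuron-like cells. Among PRRX1-positive cells, leaving out 1 library gave 41 to 86 genes for PITX1, 41 to 123 for TBX5 and 23 to 54 for IRX1. TBX5 cells against PITX1 or TBX4 cells called 69 genes in mesodermal and ungated cells only and 7 to 104 without 1 library, the lowest without E18-ZZ. No cardiac muscle-like sums were left with at least 3 markers required.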
